A study of Mus musculus with 14 samples.

Results

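Semaphorins are secreted or membrane-bound guidance proteins, plexins are their signalling receptors, and neuropilins are co-receptors that help plexins to bind the secreted class 3 semaphorins. In the embryonic mouse heart these proteins guide neural crest cells and endothelial cells during septation of the outflow tract, the vessel trunk that is divided into the aorta and the pulmonary artery. Neuropilins are shared with VEGF signalling in endothelium, and binding of a semaphorin to a plexin acts on small GTPases and on the cytoskeleton of the receiving cell. The genes described here were all those on the array whose single gene symbol marks a semaphorin, a plexin of the A to D types, Nrp1 or Nrp2. This gave 31 of 19931 genes, with 33 probe sets between them, and all 31 such genes of the reference gene table were measured. They were 20 semaphorins (7 of class 3, 6 of class 4, 2 of class 5, 4 of class 6 and 1 of class 7), 9 plexins (4 of type A, 3 of type B, 1 of type C and 1 of type D) and 2 neuropilins. Sema4d and Sema6b had more than 1 probe set, and the one with the highest mean was used.

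Expression was measured on 14 Affymetrix Mouse Gene 1.0 ST arrays, 1 per sample, from mouse embryo hearts at embryonic day E12.5. The reference group, Irx5+/-, had 3 arrays. Loss of Irx3 on that background (Irx3-/-;Irx5+/-) had 4 arrays, loss of both Irx5 copies (Irx5-/-) had 3, and the double mutants (Irx3-/-;Irx5-/-) had 4. Irx3 and Irx5 are neighbouring genes for transcription factors of the Iroquois family. Every group carried at least 1 mutated Irx5 allele, so no group was wild type, and the strain is not given in the labels. Nothing in the labels tells whether each array stands for a separate embryo. Xist minus the mean of Y-linked genes, a measure of sex, ran from -2.4 to 6.6 in Irx5+/- hearts and from -3.2 to 6.7 in Irx3-/-;Irx5+/- hearts. It ran from -3.1 to 6.3 in Irx5-/- hearts and from -2.5 to 6.5 in double mutants. Each group thus held both sexes and more than 1 embryo, but p-values may still reflect technical spread in part. Values are log2 intensities, on which a difference of 1 is a fold of 2, and differences carry the standard error of the limma fit. Called genes had a p under 0.05 after Benjamini-Hochberg adjustment over all 19931 genes.

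The targeted genes were checked first. Irx3 read 8.43, 8.53 and 8.44 in Irx5+/- hearts, 7.87, 7.89, 7.93 and 8.17 in Irx3-/-;Irx5+/- hearts, 8.25, 8.14 and 8.19 in Irx5-/- hearts, and 7.86, 7.69, 7.75 and 7.60 in double mutants. Irx5 read 8.19, 8.41 and 8.37 in Irx5+/- hearts, 8.31, 8.21, 8.21 and 8.31 in Irx3-/-;Irx5+/- hearts, 7.86, 8.34 and 7.91 in Irx5-/- hearts, and 8.20, 8.43, 7.52 and 8.04 in double mutants. The Irx3 arrays of both Irx3-/- groups lay below all 3 reference arrays, and so did those of Irx5-/- hearts, whereas Irx5 overlapped between groups. No source used here tells whether either probe set covers deleted sequence, and one outside it checks nothing. Irx3-/-;Irx5+/- replicate 4 carries the title and genotype of its group but a description that names Irx5-/-. Its Irx3 value (8.17) was the highest of its group and lay within the range of the Irx5-/- arrays. Its mean of 18 endothelial markers, described below, was 10.41, above the 9.49 to 9.78 of the Irx5-/- arrays. Which label is right was not tested. Counts of members in the comparisons that use this array are therefore also given without it. The mean of 18 sarcomere genes, which mark cardiomyocytes, ran from 10.37 to 12.71 over the 14 arrays, and that of 5 lung and foregut genes from 6.72 to 7.29.

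None of the 31 members was called in any comparison. The test for any difference among the 4 genotypes called 0 members and 1 gene in all (0.00502%). Without adjustment, 5 members had a p under 0.05 in that test, beside 9.32% of all genes. In order of p these were Sema4d, Nrp1, Sema3a, Plxnd1 and Plxnc1, and the smallest adjusted p was 0.325 for Sema4d in limma. Without the array whose labels disagree, 4 members had an unadjusted p under 0.05, beside 8.11% of all genes, and 0 genes in all were called. The 5 named members had lower group means in both groups that lacked Irx5 than in both groups that kept a copy.

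The upstream sequences of 4 of these members, and of Sema3d, are shown as examples. They belong to genes on which the results below turn or hold a motif searched. Sema4d and Sema4f, to which this also applies, are not shown. Each sequence shown is the 250 bases before the annotated gene start (RefSeq, GRCm38.p6), 5′ to 3′ on the gene's strand. Capitals mark GGGCGG or its reverse complement (a GC box, bound by Sp-type factors), or, in Sema3d, ACANNTGT, a palindromic motif of the Iroquois type. They lie at chr5:13396534-13396783 (+) for Sema3a, chr6:115995006-115995255 (-) for Plxnd1, chr10:94944846-94945095 (-) for Plxnc1, chr8:128358823-128359072 (+) for Nrp1 and chr5:12382916-12383165 (+) for Sema3d.
Sema3a: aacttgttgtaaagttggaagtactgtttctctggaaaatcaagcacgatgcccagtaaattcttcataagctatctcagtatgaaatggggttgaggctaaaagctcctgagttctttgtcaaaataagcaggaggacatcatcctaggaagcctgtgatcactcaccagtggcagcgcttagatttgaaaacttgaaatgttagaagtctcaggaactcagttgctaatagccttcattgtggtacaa
Plxnd1: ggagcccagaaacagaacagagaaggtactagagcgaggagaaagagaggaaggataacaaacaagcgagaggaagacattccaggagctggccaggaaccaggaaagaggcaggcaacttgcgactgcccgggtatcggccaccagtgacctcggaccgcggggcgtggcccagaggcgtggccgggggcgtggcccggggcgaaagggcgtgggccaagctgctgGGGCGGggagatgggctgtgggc
Plxnc1: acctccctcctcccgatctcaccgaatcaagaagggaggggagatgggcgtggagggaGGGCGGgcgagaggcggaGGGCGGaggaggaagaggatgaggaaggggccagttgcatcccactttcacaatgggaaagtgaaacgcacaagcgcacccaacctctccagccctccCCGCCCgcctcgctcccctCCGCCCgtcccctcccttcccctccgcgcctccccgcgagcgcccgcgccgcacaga
Nrp1: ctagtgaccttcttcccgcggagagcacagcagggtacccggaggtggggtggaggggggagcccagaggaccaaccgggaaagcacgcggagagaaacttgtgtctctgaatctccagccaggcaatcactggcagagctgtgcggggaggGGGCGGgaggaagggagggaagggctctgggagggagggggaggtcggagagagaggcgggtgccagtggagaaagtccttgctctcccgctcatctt
Sema3d: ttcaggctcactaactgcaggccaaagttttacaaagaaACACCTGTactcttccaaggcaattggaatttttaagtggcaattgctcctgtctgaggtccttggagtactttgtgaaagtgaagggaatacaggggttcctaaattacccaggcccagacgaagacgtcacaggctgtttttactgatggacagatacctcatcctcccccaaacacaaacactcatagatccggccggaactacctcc
The table of upstream sequences had an entry for 26 of the 31 members (37 promoters, since some genes have several starts). The members not matched were Plxna1, Plxna4, Sema3b, Sema3f and Sema6a. ACANNTGT, which reads the same on both strands, was found in promoters of 2 members, Sema3d and Sema4f, and in 6.31% of all 32851 promoters. GGGCGG, searched on both strands, was found in 27 of the 37 member promoters, from 21 members, and in 32.7% of all promoters. The stretch shown for Sema3a held neither motif, and the one for Plxnc1 held 4 GC boxes. A match describes letters in this window only.

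Loss of the remaining Irx5 copy was compared in both Irx3 states, averaged with equal weight. Sema4d, Sema3a, Plxnd1, Plxnc1, Nrp1 and Sema4f lay lower without Irx5 at an unadjusted p under 0.05, and 0 members lay higher. The same threshold took 7.03% of all genes as lower and 8.32% as higher. After adjustment 0 members and 3 genes in all (0.0151%) were called, and the smallest adjusted p of a member was 0.0924 in limma. The median difference of the 31 members was -0.08, beside -0.03 for all genes, and 21 members lay below 0, as did 57.1% of all genes. The plot of effects of Irx5 loss shows each member with its interval.

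**Figure D1:**
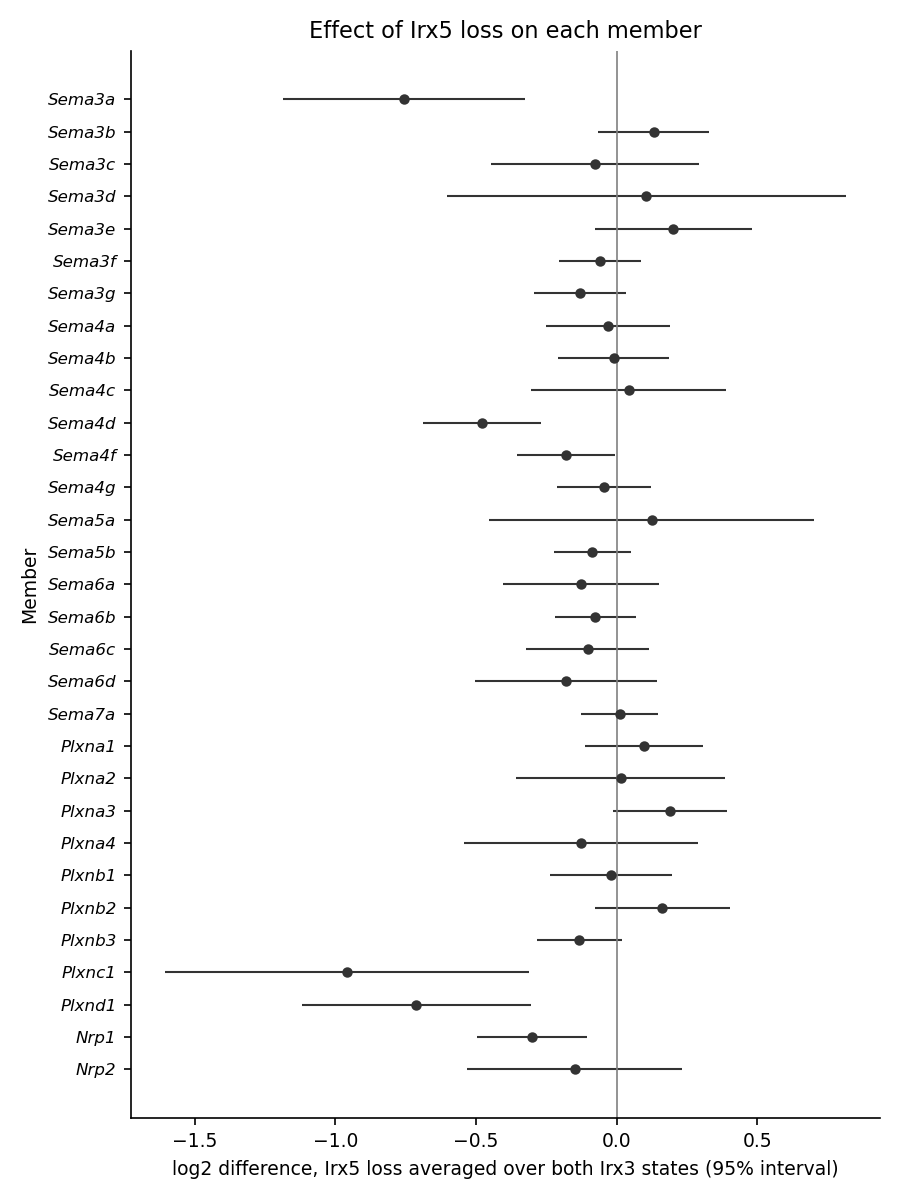
Log2 difference of each of the 31 members for loss of Irx5, averaged over hearts with and without Irx3 (x axis), with its 95% interval from limma as a bar. The intervals of Sema4d, Sema3a, Plxnd1, Plxnc1, Nrp1 and Sema4f lie below 0, that of Sema4f only just, and the other 25 include 0.

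Among the ligands, Sema4d is a membrane-bound class 4 semaphorin and the main ligand of plexin B1. Sema4d read 8.88, 9.21 and 8.90 in Irx5+/- hearts, 9.08, 9.14, 9.04 and 9.38 in Irx3-/-;Irx5+/- hearts, 8.38, 8.78 and 8.56 in Irx5-/- hearts, and 8.61, 8.83, 8.69 and 8.37 in double mutants. All 7 arrays without Irx5 (8.37 to 8.83) lay below all 7 arrays with a copy (8.88 to 9.38). Such a separation, downwards, was found in 47 genes (0.236%), and Sema4d was the only member among them. Its averaged difference was -0.48 ± 0.10 (SE), with a 95% interval of -0.69 to -0.27. The second Sema4d probe set did not show this: its averaged difference was -0.06 ± 0.11 (SE), with an interval of -0.30 to 0.19, and the mean of both probe sets gave -0.27 (adjusted p = 0.202 in limma). Both probe sets correlated at r = 0.331 over the 14 arrays. The lower Sema4d signal therefore rests on 1 of the gene's 2 probe sets.

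Sema3a is a secreted class 3 semaphorin that repels axons through Nrp1 and A-type plexins and is known in mouse heart for patterning sympathetic nerves. Sema3a read 9.69, 9.94 and 10.62 in Irx5+/- hearts, 9.76, 9.69, 10.44 and 9.94 in Irx3-/-;Irx5+/- hearts, 9.32, 9.27 and 9.28 in Irx5-/- hearts, and 9.73, 9.70, 8.72 and 8.80 in double mutants. The 3 Irx5-/- arrays lay below all 3 reference arrays, while double mutant replicates 1 and 2 stood at the level of the lower arrays with an Irx5 copy and replicates 3 and 4 far below them. The averaged difference was -0.76 ± 0.20 (SE) (95% interval -1.19 to -0.33, adjusted p = 0.146 in limma). Irx5+/- replicate 3, at 10.62, was the highest array, and without it the Irx5-/- difference from the reference was -0.52 in place of -0.79.

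Of the receptors, Plxnd1 is the plexin of endothelium, needed in mouse for outflow tract septation and for vessel patterning through Sema3e. Plxnd1 read 10.80, 11.35 and 10.87 in Irx5+/- hearts, 10.95, 10.51, 10.70 and 11.30 in Irx3-/-;Irx5+/- hearts, 9.96, 10.35 and 10.21 in Irx5-/- hearts, and 10.63, 10.87, 9.77 and 9.81 in double mutants. Its 3 Irx5-/- arrays lay below every array with an Irx5 copy. Double mutant replicates 3 and 4 did so too, whereas replicates 1 and 2 lay among the arrays with a copy. The averaged difference was -0.71 ± 0.19 (SE), with an interval of -1.12 to -0.30 and an adjusted p of 0.148 in limma.

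Plxnc1 is the receptor of Sema7a. Plxnc1 read 10.53, 10.32 and 10.07 in Irx5+/- hearts, 10.06, 9.78, 10.39 and 10.20 in Irx3-/-;Irx5+/- hearts, 8.95, 9.57 and 9.10 in Irx5-/- hearts, and 9.94, 10.26, 7.82 and 9.14 in double mutants. The Irx5-/- arrays again lay below every array with an Irx5 copy, and the double mutants spanned the widest range of the 4 groups. The averaged difference of -0.96 ± 0.30 (SE) (interval -1.60 to -0.31, adjusted p = 0.188 in limma) was the largest of the 31 members in size. Double mutant replicate 3, at 7.82, weighed on it. Without that array the averaged difference was -0.71, and the difference of the double mutants was -0.53 from the reference in place of -1.02 and -0.33 from Irx3-/-;Irx5+/- hearts in place of -0.82. Its ligand Sema7a showed values between 6.86 and 7.20 over all 14 arrays and an averaged difference of 0.01 ± 0.06 (SE) (interval -0.13 to 0.15).

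Nrp1 is the co-receptor that class 3 semaphorins share with VEGF. Nrp1 read 11.29, 11.19 and 11.25 in Irx5+/- hearts, 11.21, 10.86, 11.25 and 11.32 in Irx3-/-;Irx5+/- hearts, 11.04, 11.04 and 11.10 in Irx5-/- hearts, and 10.88, 10.95, 10.62 and 10.49 in double mutants. The reference arrays lay in the narrow range of 11.19 to 11.29, the Irx5-/- arrays just below it, and the double mutants below all Irx5-/- arrays. Its averaged difference for Irx5 loss was -0.30 ± 0.09 (SE) (interval -0.50 to -0.11, adjusted p = 0.174 in limma). Sema4f, a class 4 semaphorin, read 6.93, 7.11 and 7.16 in Irx5+/- hearts, 7.07, 7.39, 7.12 and 6.97 in Irx3-/-;Irx5+/- hearts, 6.73, 6.82 and 7.08 in Irx5-/- hearts, and 7.01, 6.94, 7.01 and 6.93 in double mutants. Its groups overlapped, and its averaged difference was -0.18 ± 0.08 (SE) (interval -0.35 to -0.0046, adjusted p = 0.315 in limma).

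**Figure D2:**
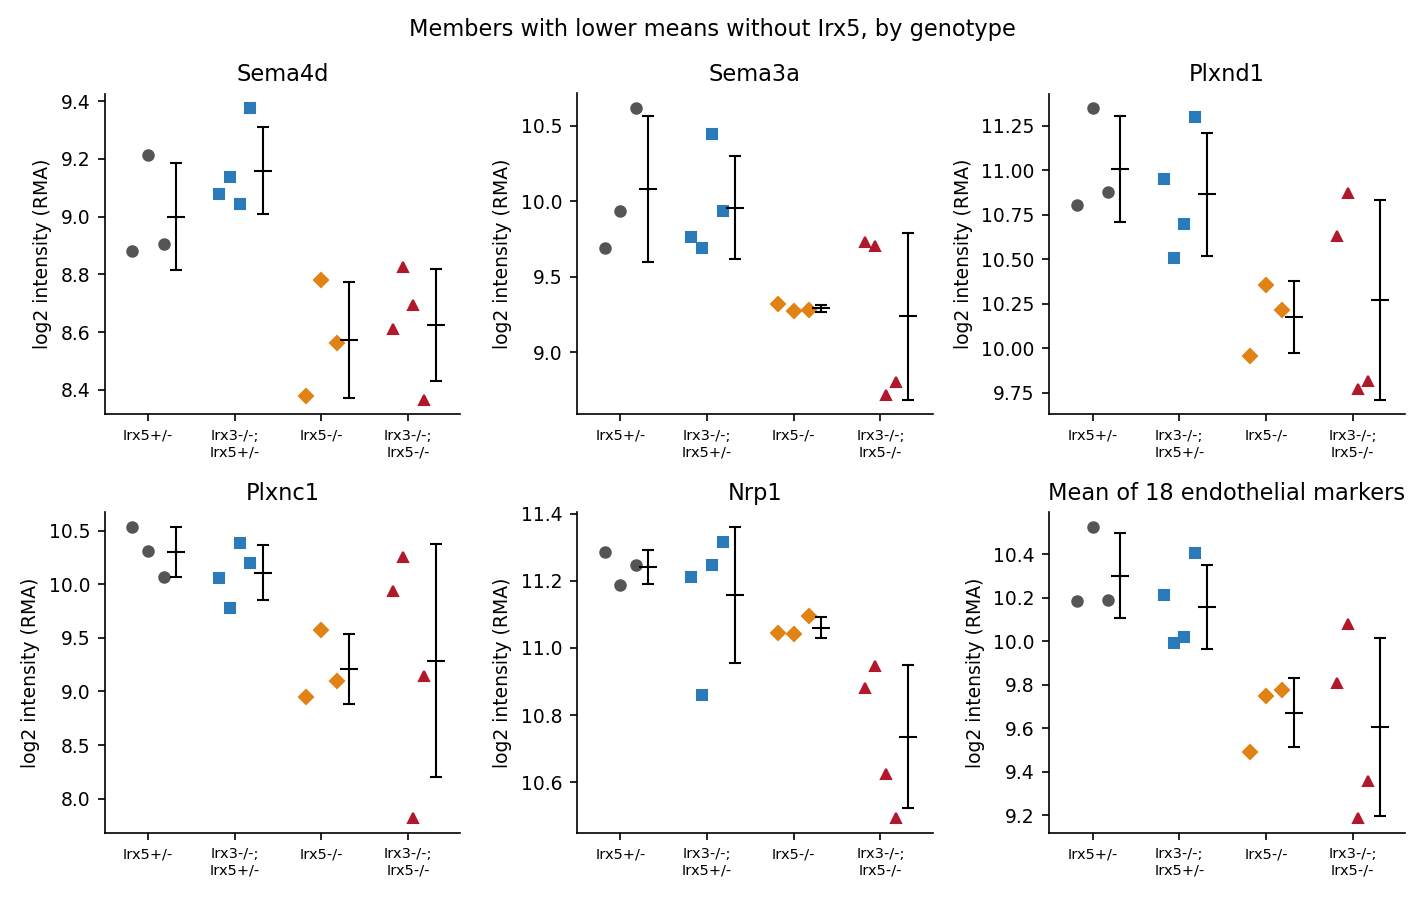
Log2 intensity (y axis) of Sema4d, Sema3a, Plxnd1, Plxnc1 and Nrp1 and of the mean of 18 endothelial and endocardial markers in each array, by genotype (x axis). Points are arrays, and the black mark with bars is the group mean with its SD. Sema4d alone, in the probe set used, separates all arrays without Irx5 (8.37 to 8.83) from all arrays with a copy (8.88 to 9.38). The marker mean is lowest in double mutant replicates 3 and 4 (9.19 and 9.36).

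The averaged difference is the mean of the comparisons in both Irx3 states, which use different arrays. Members named for their average thus tend to share its direction in both by construction. In Irx5-/- against Irx5+/- hearts, 0 members and 0 genes in all (0.0%) were called, and 4 members were lower at an unadjusted p under 0.05 (Sema4d, Sema3a, Plxnd1 and Plxnc1) beside 4.66% of all genes. Only Plxna3 was higher at that threshold, beside 5.99% of all genes. The groups did not overlap for 7 lower members (these 4, Nrp1, Plxnb3 and Sema5b), beside 9.52% of all genes, and for 1 higher member, Plxna3, beside 6.71%. The differences were -0.43 ± 0.15 (SE) for Sema4d, -0.79 ± 0.30 (SE) for Sema3a, -0.83 ± 0.29 (SE) for Plxnd1 and -1.10 ± 0.45 (SE) for Plxnc1. That of Nrp1 was -0.18 ± 0.14 (SE), and its interval of -0.47 to 0.11 includes 0.

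In double mutants against Irx3-/-;Irx5+/- hearts, 0 members and 1 gene in all (0.00502%) were called. Sema4d, Nrp1, Sema3a and Plxnd1 were lower at an unadjusted p under 0.05, beside 3.61% of all genes, and 0 members were higher, beside 4.06%. Only Sema4d had groups that did not overlap, beside 2.18% of all genes. The differences were -0.53 ± 0.13 (SE) for Sema4d, -0.42 ± 0.12 (SE) for Nrp1, -0.72 ± 0.26 (SE) for Sema3a, -0.59 ± 0.25 (SE) for Plxnd1 and -0.82 ± 0.39 (SE) for Plxnc1. Sema4d, Sema3a and Plxnd1 were thus lower at that threshold in both comparisons, as were 0.662% of all genes. In both, 0 members were higher, beside 1.03% of all genes. The second Sema4d probe set did not show this. It lay at 0.02 ± 0.17 (SE) in Irx5-/- against Irx5+/- hearts and at -0.13 ± 0.15 (SE) in double mutants against Irx3-/-;Irx5+/- hearts. The sign was the same in both comparisons for 19 of 31 members and for 65.9% of all genes. Across the 31 members the differences of both comparisons correlated at r = 0.729, and across all genes at r = 0.391, where the genes share the same arrays and are not independent.

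Without Irx3-/-;Irx5+/- replicate 4, whose labels disagree, 6 members still had an unadjusted p under 0.05 for averaged Irx5 loss, beside 13.5% of all genes. In double mutants against Irx3-/-;Irx5+/- hearts, 3 in place of 4 did, beside 6.56% of all genes. The averaged differences were then -0.44 for Sema4d, -0.76 for Sema3a, -0.64 for Plxnd1, -0.94 for Plxnc1 and -0.27 for Nrp1. Over all genes, 0 rather than 3 were called for averaged Irx5 loss and 0 rather than 1 in double mutants against Irx3-/-;Irx5+/- hearts. Single arrays also moved the counts of members. In Irx5-/- against Irx5+/- hearts the count of 5 was 2 without Irx5+/- replicate 2 (9.04% of all genes) or Irx5-/- replicate 1 (8.68%). It was 3 without Irx5+/- replicate 1 (12%). In double mutants against Irx3-/-;Irx5+/- hearts the count of 4 was 2 without double mutant replicate 3 (9.08% of all genes) or 4 (5.52%).

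The level of endothelial markers moved with the same arrays. The mean of 18 endothelial and endocardial markers was 10.18 to 10.53 in Irx5+/- hearts, 9.99 to 10.41 in Irx3-/-;Irx5+/- hearts, 9.49 to 9.78 in Irx5-/- hearts and 9.19 to 10.08 in double mutants. For averaged Irx5 loss, 14 of these 18 markers lay lower at an unadjusted p under 0.05, 0 lay higher and 0 were called, with a median difference of -0.65. Of all genes, 7.03% lay lower and 8.32% higher at that threshold. In RNA of whole hearts, fewer endothelial cells and less RNA per endothelial cell cannot be told apart. With the marker mean as a term in the fit, the averaged difference was 0.12 for Plxnd1, 0.11 for Plxnc1, -0.06 for Nrp1, -0.23 for Sema4d and -0.32 for Sema3a, and 0 members had an unadjusted p under 0.05, beside 8.78% of all genes. The marker mean itself lay lower without Irx5, so such a term and the genotype share their variation, and the part of the endothelial level in these differences cannot be told apart from that of Irx5.

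Within genotypes, the slope of each gene on the endothelial marker mean was also estimated, a test added after the results were seen. Plxnd1 had a slope of 1.41 ± 0.14 (SE) and was called (adjusted p = 0.005 in limma), the only member among 31 called genes (0.156%), all of which rose with the marker mean. The 18 markers, none of them a member, were among the genes tested, so a rise of these with their own mean is built in. Without the arrays farthest from the median, double mutant replicates 3 and 4, the Plxnd1 slope was 1.46 with an adjusted p of 0.426, and 0 genes were called (limma). Without double mutant replicate 2 the slope was 1.51, with an adjusted p of 0.0574 and again 0 genes called. Plxnc1 had a slope of 1.81 ± 0.43 (adjusted p = 0.217), Plxna4 one of 0.88 ± 0.35 (adjusted p = 0.729), Sema4d one of 0.43 ± 0.18 (adjusted p = 0.769) and Nrp1 one of 0.41 ± 0.17 (adjusted p = 0.751) in limma. Sema5a, a transmembrane class 5 semaphorin, had a slope of -1.14 ± 0.50 (adjusted p = 0.819). Whichever single array was left out, the Plxnd1 slope stayed between 1.36 and 1.52.

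**Figure D3:**
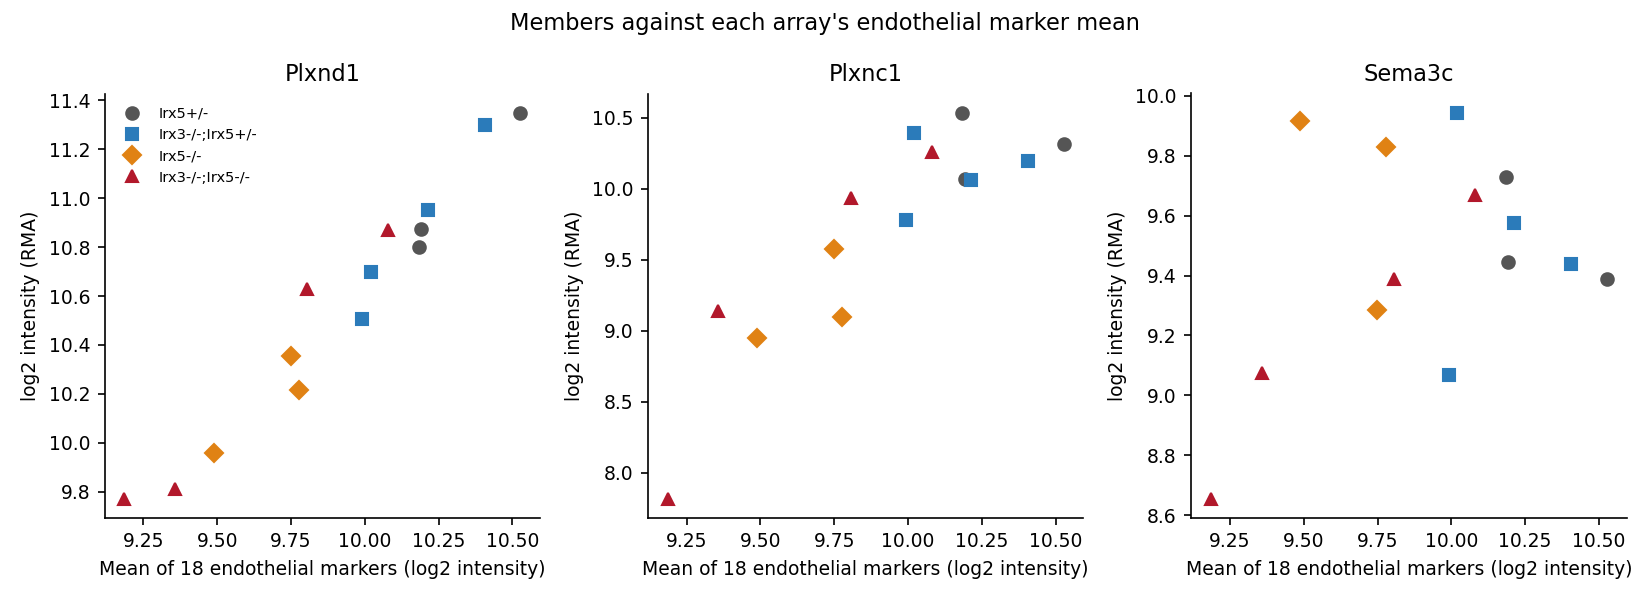
Log2 intensity of Plxnd1, Plxnc1 and Sema3c (y axes) against the mean of 18 endothelial markers (x axis), 1 point per array, with colour and shape giving the genotype. The within-genotype slope is 1.41 ± 0.14 (SE) for Plxnd1, 1.81 ± 0.43 (SE) for Plxnc1 and 0.56 ± 0.35 (SE) for Sema3c. Of these only the Plxnd1 slope was called, and the adjusted p of Sema3c was 0.959 in limma. Double mutant replicate 3 has the lowest marker mean (9.19) and the lowest value of each of the 3 genes.

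Sarcomere genes varied between arrays as well, from a mean of 10.37 in Irx5+/- replicate 3 to 12.71 in Irx5-/- replicate 2. Within genotypes, 502 genes (2.52%) had a called slope on this mean, 387 rising and 115 falling, and 0 members were among them. The 18 sarcomere genes were again among the genes tested. The members with the smallest p were Nrp2, at -0.52 ± 0.15 (SE, adjusted p = 0.0969), Sema3a, at -0.56 ± 0.18 (adjusted p = 0.143), and Sema3d, at -0.89 ± 0.30 (adjusted p = 0.171) in limma. Without Irx5+/- replicate 3 alone, or without both arrays farthest from the median (Irx5+/- replicates 3 and 2), 2 members were called, both falling. In the former fit they were Nrp2, at -0.81 (adjusted p = 0.0324 in limma), and Sema3d, at -1.51 (adjusted p = 0.0352 in limma). In the latter fit they were Sema3d, at -1.89 (adjusted p = 0.00765), and Sema6a, a transmembrane class 6 semaphorin, at -0.72 (adjusted p = 0.0148). With the sarcomere mean as a term, the averaged Irx5 difference was -0.46 for Sema3a and -0.53 for Sema4d, and 9 members had an unadjusted p under 0.05, 6 of them lower, beside 10.8% of all genes in either direction.

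Double mutants against Irx5+/- hearts gave 0 called members and 4 called genes in all (0.0201%). At an unadjusted p under 0.05, 6 members were lower (Nrp1, Sema3a, Plxnd1, Sema4d, Sema6c and Plxnc1), beside 5.56% of all genes, and 0 were higher, beside 7.9%. Nrp1 and Sema4d were the members whose groups did not overlap, beside 5.58% of all genes lower in this way. Nrp1 had the smallest adjusted p of a member, 0.153 in limma, at -0.50 ± 0.13 (SE) (interval -0.78 to -0.23). The others lay at -0.84 ± 0.28 (SE) for Sema3a, -0.74 ± 0.27 (SE) for Plxnd1, -0.38 ± 0.14 (SE) for Sema4d and -1.02 ± 0.42 (SE) for Plxnc1. The second Sema4d probe set lay at 0.007 ± 0.16 (SE). These values share the reference arrays with those of Irx5-/- hearts. The count of 6 was 3 without double mutant replicate 3 (14% of all genes), double mutant replicate 4 (10.4%) or Irx5+/- replicate 2 (10.9%).

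Sema6c, a transmembrane class 6 semaphorin, read 8.90, 8.34 and 8.64 in Irx5+/- hearts, 8.23, 8.28, 8.57 and 8.23 in Irx3-/-;Irx5+/- hearts, 8.55, 8.29 and 8.61 in Irx5-/- hearts, and 8.10, 8.40, 8.15 and 8.40 in double mutants. All groups overlapped. It lay at -0.36 ± 0.14 (SE) in double mutants against the reference (interval -0.67 to -0.05, adjusted p = 0.298 in limma), and at -0.23 without Irx5+/- replicate 1, the highest array at 8.90. Plxna3, an X-linked A-type plexin, read 8.11, 8.24 and 8.39 in Irx5+/- hearts, 8.29, 8.73, 8.67 and 8.22 in Irx3-/-;Irx5+/- hearts, 8.67, 8.50 and 8.67 in Irx5-/- hearts, and 8.65, 8.47, 8.48 and 8.35 in double mutants. All 3 Irx5-/- arrays lay above all 3 reference arrays, at 0.37 ± 0.14 (SE) (interval 0.06 to 0.67, adjusted p = 0.406 in limma), and at 0.36 with sex as a term in the fit.

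Loss of Irx3 was compared in the same way. Averaged over both Irx5 states, 0 members and 0 genes in all (0.0%) were called. Plxna2, Sema6c and Nrp1 lay lower at an unadjusted p under 0.05, beside 2.55% of all genes, and 0 members lay higher, beside 2.25%. The adjusted p was 0.9999 in limma for each of the 3. Without Irx5-/- replicate 1 or 3 the count was 1, beside 3.42% and 3.92% of all genes. Without the array whose labels disagree it was 3, all lower, beside 4.18% of all genes in either direction.

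Plxna2 is an A-type plexin that marks cardiac neural crest cells in mouse and is a receptor of class 6 semaphorins. Plxna2 read 9.83, 9.94 and 9.44 in Irx5+/- hearts, 9.13, 8.91, 10.08 and 9.41 in Irx3-/-;Irx5+/- hearts, 9.98, 9.54 and 10.10 in Irx5-/- hearts, and 8.96, 9.32, 9.56 and 9.27 in double mutants. Each Irx3-/- group overlapped with its counterpart, and Irx3-/-;Irx5+/- replicate 3, at 10.08, stood within the range of the Irx5-/- arrays. The averaged difference was -0.48 ± 0.17 (SE) (interval -0.85 to -0.11). Sema6c lay at -0.26 ± 0.10 (SE) (interval -0.48 to -0.04) and Nrp1 at -0.20 ± 0.09 (SE) (interval -0.40 to -0.01).

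With an Irx5 copy present, Irx3-/-;Irx5+/- against Irx5+/- hearts gave 0 called members and 0 called genes (0.0%). Plxnb3 was the 1 member whose groups did not overlap, lower beside 2.87% of all genes. Its difference was -0.09 ± 0.10 (SE) (interval -0.31 to 0.12). Nrp2, the second neuropilin and a co-receptor for Sema3c and Sema3f, was the 1 member lower at an unadjusted p under 0.05, beside 2.22% of all genes, and 0 members were higher, beside 2.85%. Nrp2 read 9.06, 9.55 and 9.63 in Irx5+/- hearts, 8.38, 8.63, 9.41 and 9.02 in Irx3-/-;Irx5+/- hearts, 9.21, 8.65 and 9.35 in Irx5-/- hearts, and 9.07, 9.17, 8.87 and 8.49 in double mutants. The groups overlapped at Irx3-/-;Irx5+/- replicate 3 (9.41), and the difference was -0.55 ± 0.25 (SE) (interval -1.09 to -0.01, adjusted p = 0.975 in limma). Without the array whose labels disagree it was -0.61. In that fit 2 members had an unadjusted p under 0.05, Nrp2 lower and Plxna3 higher at 0.31, beside 4.55% of all genes in either direction. With the sarcomere mean as a term, the Nrp2 difference was -0.14. That fit had 0 members lower and 3 higher at an unadjusted p under 0.05 (Plxna3 at 0.40, Plxna4 at 0.66 and Sema3d at 1.02), beside 5.94% of all genes in either direction. The sarcomere mean was 10.37 to 12.11 in Irx5+/- hearts and 11.59 to 12.39 in Irx3-/-;Irx5+/- hearts. In the fit with no such term, the count of 1 was 0 without Irx5+/- replicate 3 (4.5% of all genes) or Irx3-/-;Irx5+/- replicate 1 (4%). It was 2 when Irx5+/- replicate 1 was left out (6.04%) and 3 when Irx3-/-;Irx5+/- replicate 3 was left out (5.66%).

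In hearts that lacked Irx5, double mutants against Irx5-/- hearts gave 0 called members and 0 called genes (0.0%). Nrp1 and Plxna2 were lower at an unadjusted p under 0.05, beside 2.13% of all genes, and 0 members were higher, beside 1.5%. All 4 double mutant arrays of Nrp1 (10.49 to 10.95) lay below the 3 Irx5-/- arrays (11.04 to 11.10), as did 1.98% of all genes, and the difference was -0.32 ± 0.13 (SE) (interval -0.60 to -0.05). That of Plxna2 was -0.60 ± 0.24 (SE) (interval -1.13 to -0.08). Sema7a, a membrane-anchored semaphorin, was the 1 member whose double mutant arrays all lay above the Irx5-/- arrays, as did 2.13% of all genes, at 0.12 ± 0.09 (SE) (interval -0.08 to 0.31). The count of 2 was 5 without Irx5-/- replicate 2 (6.97% of all genes) and 0 without Irx5-/- replicate 3 (4.33%). It was 1 without Irx5-/- replicate 1 (2.52%) or double mutant replicate 1, 3 or 4 (3.23%, 3.81% and 4.11%). Across both comparisons of Irx3 loss, 0 members were lower in both at that threshold (0.0753% of all genes), and 18 of 31 had the same sign, beside 52.1% of all genes. The plot of differences sets the comparisons of Irx5 loss and of Irx3 loss side by side.

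**Figure D4:**
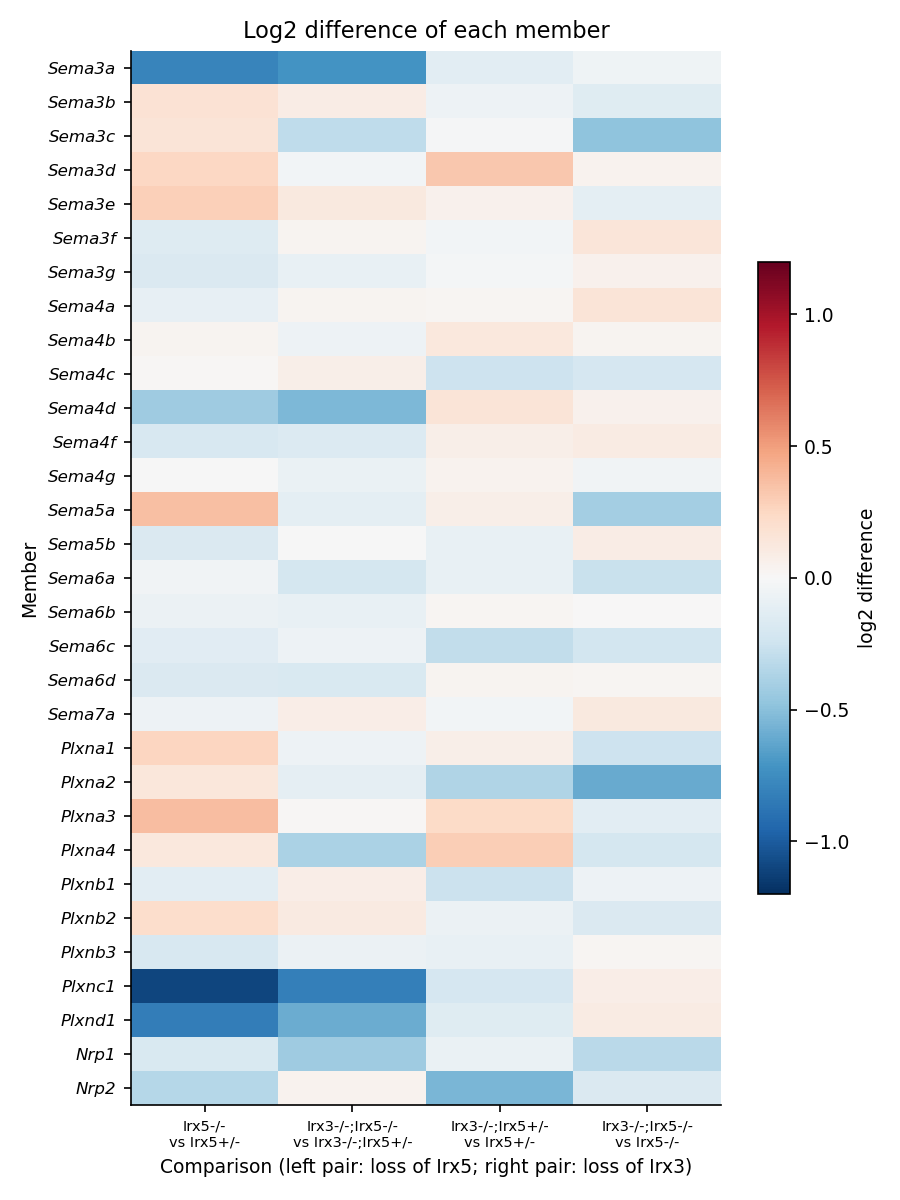
Log2 difference (colour, blue lower and red higher) of the 31 members (rows) in the 2 comparisons of Irx5 loss and the 2 comparisons of Irx3 loss (columns). Sema3a, Plxnc1 and Plxnd1 are blue in both columns of Irx5 loss (-0.59 to -1.10), and Plxna2 is blue in both columns of Irx3 loss (-0.36 and -0.60).

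The interaction asks whether the effect of losing Irx3 differs between hearts with and without an Irx5 copy. It gave 0 called members and 0 called genes (0.0%), and 0 members had an unadjusted p under 0.05, beside 2.16% of all genes lower and 1.89% higher. The smallest p of a member was that of Plxna3, at -0.36 ± 0.19 (SE) (interval -0.76 to 0.05, adjusted p = 1 in limma). Without the array whose labels disagree, Plxna3 was the 1 member with an unadjusted p under 0.05, at -0.44, beside 3.54% of all genes in either direction. The count was also 1 without Irx3-/-;Irx5+/- replicate 1 (Plxna3), double mutant replicate 1 (Plxna4) or Irx5-/- replicate 2 (Plxna1). In these fits 3.77%, 3.83% and 4.44% of all genes passed. It was 3 with the sarcomere mean as a term (Plxna1, Plxna3 and Plxna4), beside 5.34% of all genes, and 0 of these were called. For Nrp1 the interaction was -0.24 ± 0.18 (SE) (interval -0.63 to 0.14), and for Plxna2 -0.25 ± 0.35 (SE) (interval -0.99 to 0.50).

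The ligands best known from the outflow tract were not called, and their intervals bound what these arrays could show. Sema3c is secreted by outflow tract muscle and attracts neural crest cells, and mice without it can have an undivided trunk. Sema3c read 9.73, 9.39 and 9.44 in Irx5+/- hearts, 9.57, 9.07, 9.94 and 9.44 in Irx3-/-;Irx5+/- hearts, 9.92, 9.29 and 9.83 in Irx5-/- hearts, and 9.39, 9.67, 8.66 and 9.07 in double mutants. The groups overlapped, and double mutant replicates 3 and 4 were the lowest of all 14 arrays together with Irx3-/-;Irx5+/- replicate 2. Double mutants lay at -0.32 ± 0.24 (SE) against the reference (interval -0.85 to 0.20), and at -0.14 without double mutant replicate 3.

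Sema3d, a secreted semaphorin that guides endothelial cells of the pulmonary veins in mouse, read 8.42, 8.42 and 8.76 in Irx5+/- hearts, 8.56, 8.72, 9.69 and 8.47 in Irx3-/-;Irx5+/- hearts, 9.41, 7.59 and 9.33 in Irx5-/- hearts, and 9.94, 8.30, 8.35 and 8.71 in double mutants. Arrays within a group differed more than group means did: Irx5-/- replicate 2 was the lowest of all at 7.59, beside 9.41 and 9.33 in the other Irx5-/- arrays. The double mutant difference from the reference was 0.29 ± 0.47 (SE) (interval -0.71 to 1.29), -0.079 without double mutant replicate 1 and 1.24 with the sarcomere mean as a term in the fit. The mean of 7 epicardial markers set the same arrays apart, lowest in Irx5-/- replicate 2 (7.97) and highest in double mutant replicate 1 (10.42). It was 8.88 to 9.40 in Irx5+/- hearts, 8.71 to 9.41 in Irx3-/-;Irx5+/- hearts, 7.97 to 9.96 in Irx5-/- hearts and 8.52 to 10.42 in double mutants, and its part in the Sema3d values was not tested. Sema3f, a ligand of Nrp2, read 8.85, 8.88 and 8.80 in Irx5+/- hearts, 8.80, 8.85, 8.85 and 8.73 in Irx3-/-;Irx5+/- hearts, 8.77, 8.50 and 8.80 in Irx5-/- hearts, and 8.97, 8.88, 8.80 and 8.71 in double mutants. Its 14 arrays lay between 8.50 and 8.97, and the interval of the double mutant difference was -0.21 to 0.20.

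Among A-type and B-type receptors, Plxna4, a partner of Nrp1 for Sema3a, read 9.72, 10.43 and 10.41 in Irx5+/- hearts, 10.45, 10.25, 10.65 and 10.59 in Irx3-/-;Irx5+/- hearts, 10.51, 10.10 and 10.33 in Irx5-/- hearts, and 10.84, 10.28, 9.42 and 9.86 in double mutants. Double mutants spanned 9.42 to 10.84, beyond every other group in both directions, and lay at -0.08 ± 0.27 (SE) against the reference (interval -0.67 to 0.50). Plxna1, a receptor for Sema6d in the chick heart, read 9.76, 9.89 and 9.93 in Irx5+/- hearts, 9.96, 9.83, 10.06 and 9.88 in Irx3-/-;Irx5+/- hearts, 10.43, 9.76 and 10.15 in Irx5-/- hearts, and 9.84, 10.04, 9.71 and 9.89 in double mutants. Its double mutant difference was 0.01 ± 0.14 (SE) (interval -0.29 to 0.31). Plxnb1, the receptor of Sema4d, read 8.70, 9.16 and 9.06 in Irx5+/- hearts, 8.60, 8.97, 8.38 and 8.90 in Irx3-/-;Irx5+/- hearts, 8.76, 8.87 and 8.92 in Irx5-/- hearts, and 8.82, 8.78, 8.79 and 8.78 in double mutants. The groups overlapped, the 4 double mutants lay between 8.78 and 8.82, and the difference was -0.18 ± 0.14 (SE) (interval -0.49 to 0.13). Sema6d, which shapes the ventricle wall through A-type plexins in chick, read 10.81, 10.96 and 10.65 in Irx5+/- hearts, 11.23, 10.40, 10.50 and 11.23 in Irx3-/-;Irx5+/- hearts, 10.47, 11.02 and 10.40 in Irx5-/- hearts, and 10.47, 10.72, 10.71 and 10.71 in double mutants. Its groups overlapped too, with a double mutant difference of -0.15 ± 0.21 (SE) (interval -0.61 to 0.30).

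Nrp2 and Plxna2 lay lower in double mutants than in the reference, at -0.51 ± 0.25 (SE) (interval -1.05 to 0.03) and -0.46 ± 0.24 (SE) (interval -0.99 to 0.06), without a call. With the sarcomere mean as a term in the fit, the Nrp2 value was 0.047.

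**Figure D5:**
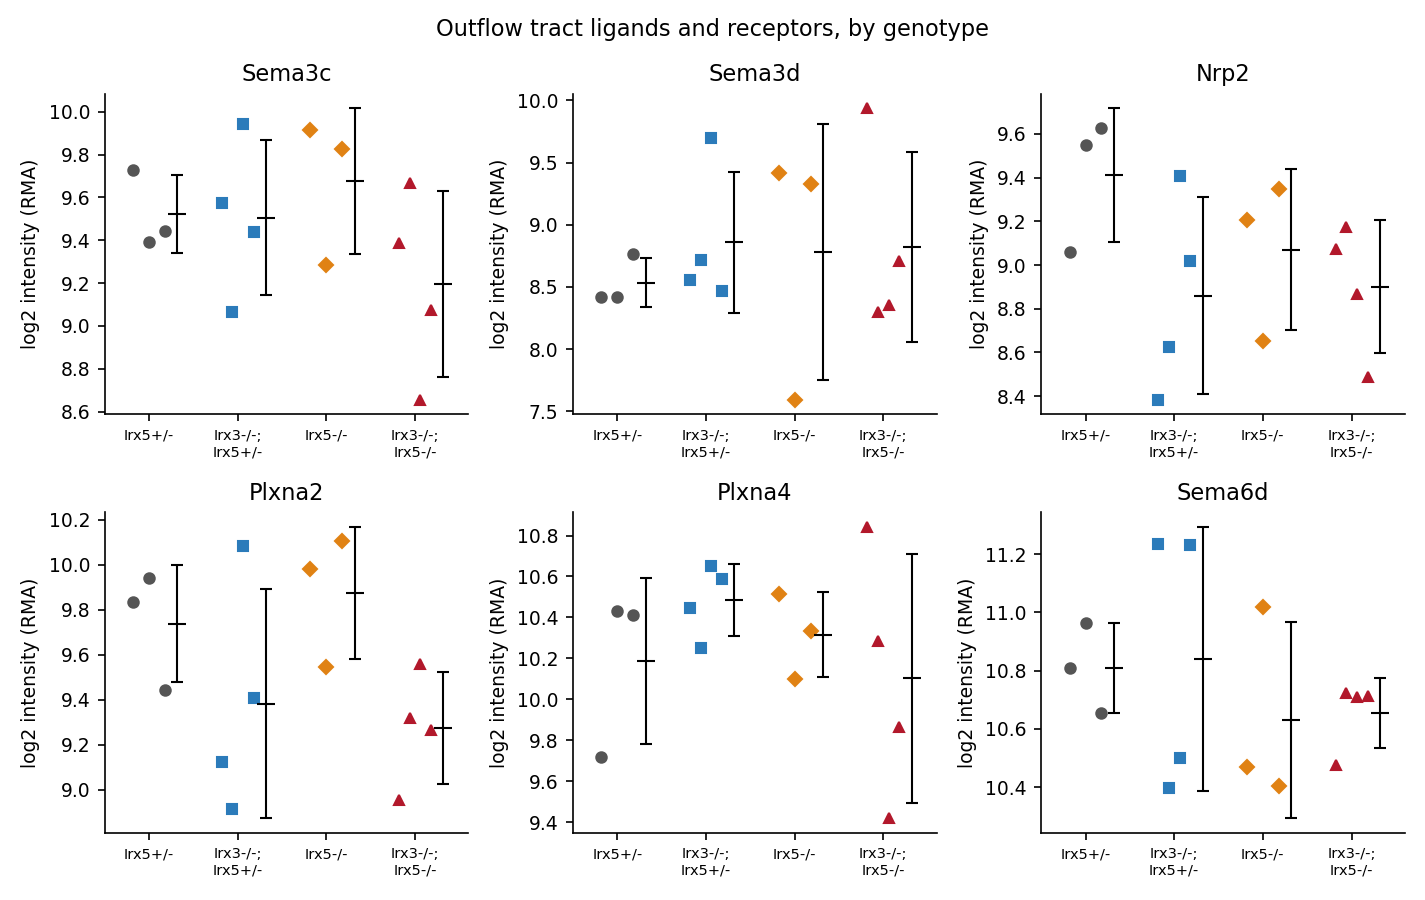
Log2 intensity (y axis) of Sema3c, Sema3d, Nrp2, Plxna2, Plxna4 and Sema6d in each array, by genotype (x axis). Points are arrays, and the black mark with bars is the group mean with its SD. Groups overlap in all 6 panels, and Sema3d in Irx5-/- hearts spans 7.59 to 9.41.

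The other 14 members were Sema3b, Sema3e, Sema3g, Sema4a, Sema4b, Sema4c, Sema4g, Sema5a, Sema5b, Sema6a, Sema6b, Sema7a, Plxnb2 and Plxnb3. None had an unadjusted p under 0.05 in any of the 9 tests. Their averaged differences for Irx5 loss ran from -0.13 (Plxnb3) to 0.20 (Sema3e), and their double mutant differences from the reference from -0.31 (Sema6a) to 0.17 (Sema3e). Sema3e, the ligand that Plxnd1 binds without a neuropilin, read 6.98, 7.23 and 6.97 in Irx5+/- hearts, 7.05, 7.20, 7.20 and 6.998 in Irx3-/-;Irx5+/- hearts, 7.75, 7.10 and 7.19 in Irx5-/- hearts, and 7.70, 6.98, 7.26 and 6.97 in double mutants. Irx5-/- replicate 1 and double mutant replicate 1 stood above the other 12 arrays, and the averaged difference was 0.20 ± 0.13 (SE) (interval -0.08 to 0.48).

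Genes that act with semaphorin receptors were counted from a list of 60 partners (VEGF receptors and ligands, collapsin response mediators, small GTPases and their regulators, adhesion molecules), of which 56 were measured. For averaged Irx5 loss 0 were called, and 7 lay lower and 7 higher at an unadjusted p under 0.05. That threshold took 7.03% of all genes as lower and 8.32% as higher. The median difference was 0.03 beside -0.03 for all genes. Robo4 was on this list and on that of endothelial markers. The 4 with the smallest p among genotypes were Flt1, a VEGF receptor of endothelium, at -0.78 ± 0.16 (SE), Dpysl3, a collapsin response mediator, at 0.51 ± 0.15 (SE), Rnd2, a small GTPase, at 0.50 ± 0.12 (SE), and Vegfc, the lymphatic growth factor that binds Nrp2, at 0.36 ± 0.14 (SE). Their adjusted p in limma ran from 0.099 for Flt1 to 0.258 for Vegfc. Flt1 was thus lower, and the others higher, without a call.

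Of 30 regulators of outflow tract development, 27 were measured and 0 were called for averaged Irx5 loss. At an unadjusted p under 0.05, 3 lay lower and 3 higher, beside 7.03% and 8.32% of all genes. Tbx20, a T-box factor, lay at 0.70 ± 0.12 (SE) (adjusted p = 0.0852 in limma), Msx2 at 0.29 ± 0.08 (SE), Tbx3 at 0.21 ± 0.10 (SE) and Foxc2, a forkhead factor of endothelium and mesenchyme, at -0.50 ± 0.19 (SE). The values of Msx2 and Tbx3 differed in sign between the Irx3 states. In Irx5-/- against Irx5+/- hearts they were -0.02 ± 0.13 (SE) and -0.06 ± 0.15 (SE), and in double mutants against Irx3-/-;Irx5+/- hearts 0.59 ± 0.11 (SE) and 0.48 ± 0.13 (SE), with no call for the interaction (adjusted p = 1 for each in limma). Of 11 neural crest, Schwann cell and neuron markers, 2 lay lower and 2 higher at an unadjusted p under 0.05 for averaged Irx5 loss, with a median difference of -0.05. Of 10 mesenchyme and cushion markers, 0 lay lower and 3 higher, with a median of 0.07. The shares of all genes beside these marker counts were again 7.03% lower and 8.32% higher.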

How the data were processed

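The authors deposited log2 intensities, 1 value per probe set and array, and the submitters' processing notes name RMA, affy and limma. Neither the versions of these tools nor a genome build for the probe sets is given in the sources used here. No further scaling was applied. Array intensities have no read depth, and precision is limited by how many arrays there are.

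Of 28763 probe sets, 21776 had exactly 1 gene symbol in the platform annotation, 1592 had several and 5395 had none. Of those with 1 symbol, 21685 matched the reference gene table (GRCm38.p6, names only) through their gene ID, and 91 did not. For 998 genes with more than 1 probe set, the one with the highest mean represented the gene. The table then held 19931 genes. Medians of the arrays were between 7.89 and 7.99, and pairs of arrays correlated at 0.962 to 0.988.

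The test was limma (version 3.58.1, R 4.3.3), with 1 mean per genotype and all 14 arrays in the fit (10 residual degrees of freedom), 2-sided, and p-values adjusted over all genes by Benjamini-Hochberg. It was also run on simulated data. There genes varied independently and the planted differences were larger than most of those seen in members, so that run does not cover smaller or shared shifts. Intervals are 95% intervals of that fit. Described with a value per array were members with a known role in the heart or outflow tract, the 10 members with the smallest p among genotypes and any called member. Of each partner list at most 4 genes were named. The members, lists and named genes were chosen with earlier results of these data known. Some genes of the partner and regulator lists were not analysed here. Alternatives were each array left out, array weights, centring, a filter on low genes, all probe sets, the replicate number as a block, fits on the compared groups only, and terms for sex or for marker means.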

Additional observations from a re-analysis of the deposited data

Results flagged for a closer look

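In 6 of 62 groups of 4 arrays, 1 per member and group, the highest or lowest array stood apart from the other 3 by Dixon's criterion at its 95% critical value. Chance alone flags about 1 in 20 groups, or 3.1 of 62. In double mutant replicate 1, Plxnb2 was high at 10.05 (others 9.72 to 9.75) and Sema6d low at 10.47 (others 10.71 to 10.72). In double mutant replicate 2, Sema3b was low at 7.90 (others 8.20 to 8.25). In Irx3-/-;Irx5+/- replicate 2, Plxnb3 was high at 7.56 (others 7.50 to 7.51) and Sema4c low at 7.94 (others 8.60 to 8.65). In Irx3-/-;Irx5+/- replicate 3, Sema6c was high at 8.57 (others 8.23 to 8.28). The causes were not tested.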

How the results depend on the processing

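No member was called in any of the 9 comparisons under any of 186 alternatives, and the smallest adjusted p of a member was 0.0643 in limma (Sema4d, averaged Irx5 loss, array weights). Of 740 recomputed member differences, 711 kept their direction and 29 reversed, 10 of them when 1 array was left out. With the endothelial marker mean as a term, reversed values were 0.056 for Irx5-/- against Irx5+/-, 0.19 for double mutants against Irx3-/-;Irx5+/-, 0.24 for double mutants against Irx5+/- and 0.12 for averaged Irx5 loss in Plxnd1. In Plxnc1 they were 0.042, 0.18, 0.24 and 0.11 in the same order, and Nrp1 gave 0.078 in Irx5-/- against Irx5+/-. In double mutants against Irx5+/- that term gave 0.065 for Sema3c, 0.051 for Sema3f, 0.53 for Plxna4 and 0.11 for Sema6d, and the sarcomere term gave 0.083 for Sema3f, 0.40 for Plxna4 and 0.047 for Nrp2. In the same comparison Sema3f was 0.0057 with each array centred on its median, and Plxna4 was 0.028 without the arrays farthest apart on the first principal component (Irx5+/- replicate 3 and Irx5-/- replicate 2), an alternative added after seeing the data. Leaving out 1 array, it ranged from -0.079 to 0.47 for Sema3d, -0.045 to 0.041 for Sema3f, -0.33 to 0.14 for Plxna4 and -0.046 to 0.065 for Plxna1.

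The within-genotype slope of Plxnd1 was 1.36 to 1.52 with 1 array left out (adjusted p 0.00597 to 0.0574 in limma) and 1.46 without the arrays farthest from the median marker mean (adjusted p = 0.426). The replicate numbers were not treated as a pairing in the main fit. Deviations of same-numbered arrays correlated at -0.18 to 0.19 over 19 pairs, with a median of -0.06 beside 0.02 for other numbers. Such a check cannot show whether arrays were matched. With the replicate block, 0 members were called, Sema3f in double mutants against Irx5+/- was 0.031, and 0 rather than 4 genes were called in that comparison. Over all genes that count was 14 with all probe sets, 15 on the compared groups only, 7 with array weights, 0 with the sarcomere or endothelial term and 0 to 23 with 1 array left out. For averaged Irx5 loss it was 10 with all probe sets, 1 with the block, and 0 with the sex, sarcomere or endothelial term, in place of 3. The causes were not tested.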
